A study of Mus musculus with 4 samples.

Results

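The 8 genes Egfem1, Hunk, Zfpm2, Parm1, Man1a, Cadm1, Plcxd3 and Arhgap15, out of 33696 genes counted, were followed through the excitatory neurons of the mouse cortex in pregnancy. They were chosen by their measured fold changes between pregnant and non-pregnant mice in several deep-layer neuron types of these same libraries. That contrast picked them, so their differences in deep-layer neurons are given as a description, without p-values. Nuclei came from microdissected cortex of 4 wildtype female mice of the inbred strain C57BL/6JRj, about 12 weeks old, with 1 sequencing library per mouse. The 2 control mice were not pregnant, and the 2 pregnant mice came from timed matings and were taken at E13.5, the embryonic stage. No other treatment and no engineered allele was named for either group, and all nuclei were prepared with actinomycin D, which blocks new transcription. Which cortical area was taken is not stated in the labels, so a difference in area between the mice and their pregnancy cannot be told apart.

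Deep-layer neurons send the main output of the cortex, and their classes are named for where the axon goes. Intratelencephalic neurons of layers 5 and 6 (L5 IT, L6 IT) project within the cortex and striatum, extratelencephalic neurons (L5 ET) reach the brainstem and spinal cord, corticothalamic neurons (L6 CT) reach the thalamus, and near-projecting neurons (L5/6 NP) have short axons. The 8 genes belong to no single pathway. Egfem1 carries EGF-like and EMI domains, which are typical of extracellular proteins. Cadm1 (SynCAM) is an immunoglobulin-family adhesion molecule that organises synapses, and Parm1 is a mucin-like membrane protein described as an androgen-regulated transcript of the prostate. Man1a is a Golgi alpha-mannosidase that trims N-glycans. Hunk is a kinase of the AMPK-related family, named for its hormonal regulation in the mammary gland. Plcxd3 carries the X domain of phosphatidylinositol-specific phospholipase C, Arhgap15 is a GTPase-activating protein that switches off Rac, and Zfpm2 (FOG2) is a nuclear cofactor of GATA transcription factors.

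Promoter sequences are shown because several of these genes differed in the same neurons, and they let a reader see how unlike the starts of the genes are. RefSeq's table of promoters (build GRCm38.p6) held 6 of the 8 genes. The 250 bases before the transcription start are printed for 4 of them, 3 that were higher in the pregnant mice and 1 that was lower. For Egfem1 and Arhgap15 the table lists 2 promoters each, and the one with a motif match is printed, while the others had 56.8% and 42.8% G and C and no match. Each is written 5′ to 3′ on the gene's own strand, at chr3:29082281-29082530 for Egfem1, chr16:90386147-90386396 for Hunk, chr5:91517450-91517699 for Parm1 and chr2:43748574-43748823 for Arhgap15, all on the plus strand. Capitals mark a match to AGAACA, the core of glucocorticoid and progesterone receptor sites, or to TGACCT, the reverse complement of AGGTCA, the core of oestrogen and other nuclear receptor sites.
Egfem1: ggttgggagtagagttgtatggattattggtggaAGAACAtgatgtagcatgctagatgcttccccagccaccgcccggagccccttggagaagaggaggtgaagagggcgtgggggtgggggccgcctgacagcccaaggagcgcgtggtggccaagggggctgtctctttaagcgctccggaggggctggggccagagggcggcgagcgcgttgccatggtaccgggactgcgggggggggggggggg
Hunk: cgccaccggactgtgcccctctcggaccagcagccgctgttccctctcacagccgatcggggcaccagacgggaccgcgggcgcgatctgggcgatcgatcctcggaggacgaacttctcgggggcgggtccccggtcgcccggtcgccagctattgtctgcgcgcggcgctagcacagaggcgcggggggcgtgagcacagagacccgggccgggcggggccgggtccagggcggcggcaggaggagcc
Parm1: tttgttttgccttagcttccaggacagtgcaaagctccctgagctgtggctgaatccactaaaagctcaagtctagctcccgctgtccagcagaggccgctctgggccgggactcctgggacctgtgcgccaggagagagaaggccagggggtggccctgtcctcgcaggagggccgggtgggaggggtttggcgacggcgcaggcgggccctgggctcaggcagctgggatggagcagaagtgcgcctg
Arhgap15: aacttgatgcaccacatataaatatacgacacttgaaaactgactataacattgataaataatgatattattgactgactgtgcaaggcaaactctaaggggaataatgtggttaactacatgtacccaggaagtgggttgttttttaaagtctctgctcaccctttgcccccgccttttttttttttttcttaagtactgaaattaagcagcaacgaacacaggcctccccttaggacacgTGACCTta

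The Hunk promoter had 74.8% G and C and 34 CG pairs, against medians of 52.4% and 6 over the table's 32851 promoters. That of Arhgap15 lay on the other side, with 38.4% G and C and 4 CG pairs. Parm1 had 65.2% and 11, and the printed promoter of Egfem1 had 66.4% and 14. Over both strands of all promoters listed for the 6 genes, AGAACA matched 1 time, 216 bases before the start of Egfem1, and AGGTCA 1 time, 8 bases before the start of Arhgap15. The cyclic AMP response element TGACGTCA, whose letters hold neither of the other motifs, did not match. Over the whole promoter set, 16.1% of promoters held AGAACA, 14% held AGGTCA and 1.55% held TGACGTCA. A match describes letters and shows no binding.

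The 4 libraries held 6357 to 6932 barcodes, equal to the numbers of nuclei that the labels give, and 97875766 to 116860425 UMIs (molecular barcodes that mark each captured RNA molecule), with non-pregnant replicate 2 the deepest. After filters 25033 nuclei remained. The gate for excitatory nuclei asked for at least 1 UMI of the glutamate transporter Slc17a7 and at most 1 of the GABA-synthesis genes Gad1 and Gad2 together, and 17064 nuclei passed. Of these, 14999 lay in named excitatory types and 4497 in the 5 deep-layer types, with 62 to 416 nuclei per deep-layer type and library. In each deep-layer type all of its 6 to 8 detected markers were higher than in the other excitatory types. The clusters were named by these same markers, so this is no separate check of the names. Pairs of libraries shared 20 to 31 barcodes, at most 0.464% of the smaller library. The summed level of 4 haemoglobin genes, a sign of free RNA from blood, was higher in both pregnant libraries in all 5 deep-layer types. In L5 IT it was 2.14 and 2.18 counts per 1000000 UMIs (CPM) in the non-pregnant and 14.1 and 11.8 CPM in the pregnant libraries, and its part in the results was not tested.

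Within a type, the libraries differed in make-up. Nuclei of each type were therefore sub-clustered without the 8 genes, and the sub-clusters were sorted into 3 kinds. The 32 shared ones of the deep-layer types held at least 5 nuclei of every library. Those called pregnant-limited each held under 3% of the type's nuclei in each non-pregnant library and at least 10 pregnant nuclei. The pregnant-limited kind made up 43.4% and 34.5% of L5 ET nuclei in the pregnant libraries against 2.65% and 2.52% in the non-pregnant ones, and 17.4% and 20.7% against 0% and 0% of L5/6 NP nuclei. It made up 28.4% and 33.9% against 3.40% and 0.299% of L6 CT nuclei and 11.2% and 12.6% against 0.465% and 0.442% of L6 IT nuclei. No sub-cluster of L5 IT met this rule. The third kind, neither shared nor pregnant-limited, was rare in non-pregnant replicate 2 alone in L5 IT, L5 ET, L5/6 NP and L6 CT. In L6 IT it held 5.12% and 15.5% of nuclei in the non-pregnant and 0.386% and 2.11% in the pregnant libraries. In L5 IT it held 0.488% of nuclei in non-pregnant replicate 2, against 28.9% in non-pregnant replicate 1 and 47.2% and 46.6% in the pregnant libraries. There sub-cluster 3 held 24.0% and 16.3% of pregnant against 6.38% and 0.488% of non-pregnant nuclei, and sub-cluster 6 held 16.3% and 10.9% against 3.65% and 0%. Both missed the 3% limit in non-pregnant replicate 1 only. Sub-clusters 7 and 9, the others of this kind in L5 IT, overlapped between the groups. Another 15 and 0 non-pregnant and 609 and 576 pregnant nuclei lay in excitatory clusters nearly limited to pregnant libraries and were kept out of the named types.

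In the deep-layer types 7 of the 8 genes were mostly higher in the pregnant mice and Arhgap15 was lower. In edgeR's quasi-likelihood fit over all genes, with the Benjamini-Hochberg adjusted p under 0.05, the call included 5 of the 8 genes higher and 1 lower in L5 IT, 7 and 1 in L5 ET, 5 and 1 in L5/6 NP, 4 and 0 in L6 IT and 5 and 1 in L6 CT. DESeq2 called 6, 8, 4, 4 and 5 of them in either direction. Of all genes tested, 0.638% were called higher and 0.486% lower in L5 IT, 2.07% and 1.35% in L5 ET, 1.23% and 0.508% in L5/6 NP, 0.477% and 0.223% in L6 IT and 0.581% and 0.199% in L6 CT. The median log2 fold change of the 8 genes, pregnant over non-pregnant, was 0.93, 1.29, 2.04, 0.75 and 1.03 in the same order, while that of all genes tested lay between -0.011 and 0.0022. These counts follow from how the genes were chosen and support nothing further. Levels below are raw UMIs summed per library and given in CPM, always with non-pregnant replicates 1 and 2 first and pregnant replicates 1 and 2 after them.

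**Figure D1:**
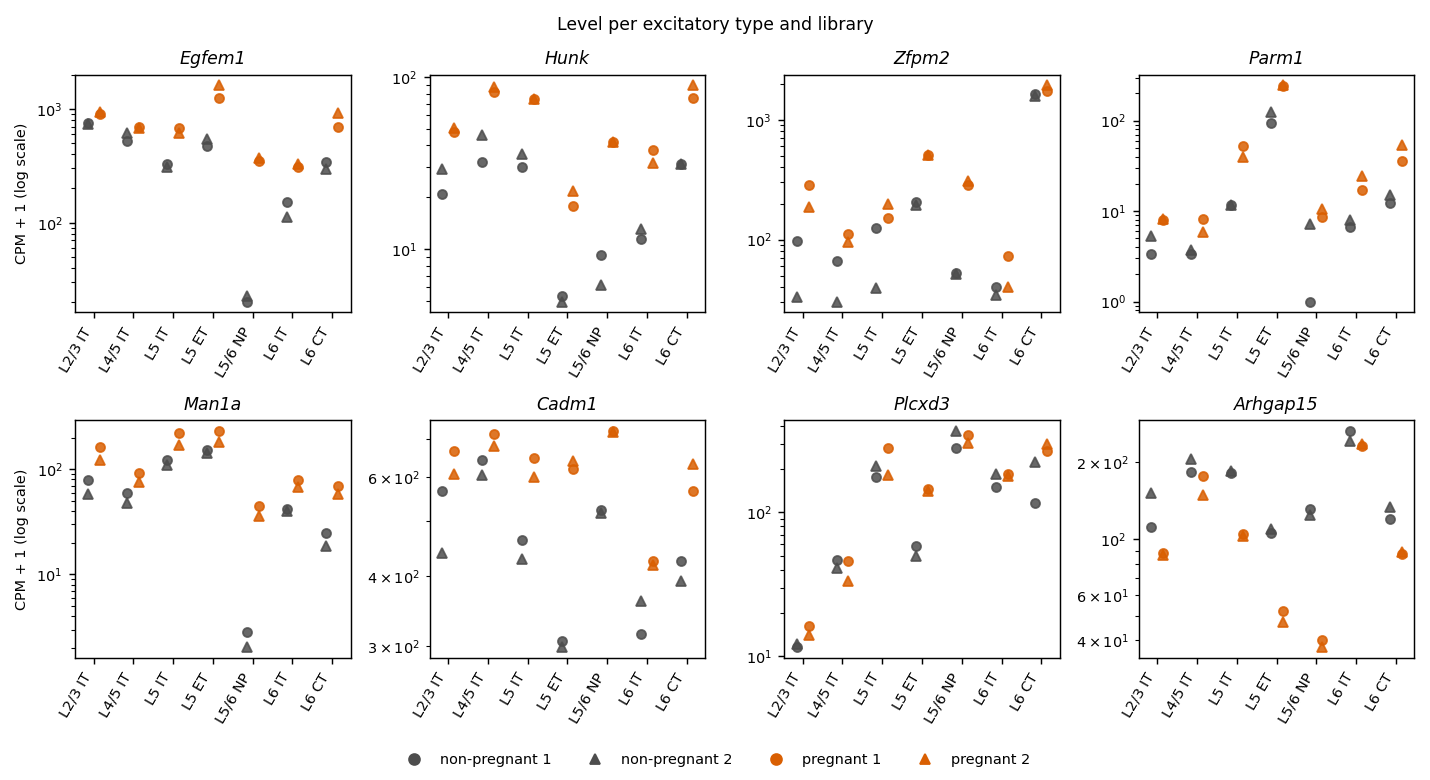
Level of each of the 8 genes (CPM + 1, log axis) in the 7 excitatory types, with 1 point per library: grey for non-pregnant, orange for pregnant, circles for replicate 1 and triangles for replicate 2. Egfem1, Hunk, Parm1, Man1a and Cadm1 were higher in both pregnant libraries in 7 of 7 types, and Arhgap15 was lower in 7 of 7.

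Counts of genes whose 2 libraries of each group do not overlap have their own background. By CPM, among genes with a mean of at least 10 CPM in the type, 19% were higher in the pregnant libraries and 20.4% lower in L5 IT. These shares were 22.3% and 26.3% in L5 ET, 19% and 22.1% in L5/6 NP, 20.8% and 17.9% in L6 IT and 19.6% and 22.8% in L6 CT. The 8 genes were counted whatever their level, and Parm1 in L5/6 NP lay below that mean. Of the 8 genes, 6 were higher, 1 lower and 1 overlapped in L5 IT and in L5/6 NP, 7 were higher and 1 lower in L5 ET and in L6 CT, and 5 were higher, 1 lower and 2 overlapped in L6 IT. The choice of the genes fixed this direction, and nothing is read from it.

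Among the genes of the cell surface, Egfem1 differed most in L5/6 NP neurons. Its level there was 19.3 and 21.7 CPM in the non-pregnant and 345 and 369 CPM in the pregnant libraries (log2 fold change 4.14, SE 0.177). L5/6 NP was the type with the lowest Egfem1 level of the 7 excitatory types in the non-pregnant mice, and in the pregnant mice its 357 ± 17.3 CPM (SD, n = 2) lay above the 315 ± 12.8 CPM of L6 IT. In L5 ET neurons Egfem1 was at 469 and 548 against 1234 and 1609 CPM (1.51, SE 0.129). With this, L5 ET passed L2/3 IT and L4/5 IT and had the highest mean of the 7 types in the pregnant mice.

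Egfem1 was also higher in the other deep-layer types. It stood at 326 and 308 against 682 and 616 CPM in L5 IT (1.06, SE 0.122), at 152 and 112 against 306 and 324 CPM in L6 IT (1.26, SE 0.119) and at 342 and 293 against 692 and 911 CPM in L6 CT (1.35, SE 0.122). In none of the 5 deep-layer types did the groups overlap.

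Cadm1, a synaptic adhesion molecule, was abundant in every excitatory type and differed less in size. In L5 ET, the type with the lowest Cadm1 level in the non-pregnant mice, it stood at 305 and 297 against 620 and 638 CPM (1.10, SE 0.111). The other deep-layer types had log2 fold changes of 0.31 (SE 0.106) in L6 IT to 0.57 (SE 0.0924) in L6 CT. Its groups did not overlap in any of them, although L6 IT came close, with 314 and 359 against 424 and 417 CPM.

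Among the excitatory types Parm1 was mainly a gene of L5 ET neurons, at 93.8 and 124 against 242 and 245 CPM (1.19, SE 0.121). In L5 IT neurons it stood at 10.7 and 10.7 against 51.6 and 38.7 CPM (2.11, SE 0.192), in L6 CT at 11.2 and 14.1 against 34.7 and 53.4 CPM (1.77, SE 0.219), and in L6 IT at 5.63 and 6.90 against 16.3 and 23.7 CPM (1.60, SE 0.252). L5/6 NP neurons held almost no Parm1, with 0 UMIs in non-pregnant replicate 1, which allows up to 2.76 CPM, and 6.195, 7.56 and 9.42 CPM in the other libraries. L5 ET had the highest Parm1 level of the 7 excitatory types in both groups. Outside them, inhibitory neurons held 128 and 137 against 119 and 123 CPM and oligodendrocytes 130 and 104 against 118 and 93.6 CPM, about as much as non-pregnant L5 ET.

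The Golgi enzyme Man1a was close to background in non-pregnant L5/6 NP neurons. It stood at 1.84 and 1.03 against 43.5 and 34.7 CPM. This rests on 3 UMIs in the non-pregnant sums together and 128 in the pregnant ones, a ratio per UMI of 26.7 with a 95% counting interval from 8.94 to 131. In L6 CT it stood at 23.7 and 17.4 against 68.3 and 57.6 CPM (1.66, SE 0.165). In L5 IT, L5 ET and L6 IT, where more of it was found, the log2 fold changes were 0.79 (SE 0.142), 0.53 (SE 0.126) and 0.85 (SE 0.136). In L5 ET the libraries stood at 150 and 140 against 229 and 178 CPM, so pregnant replicate 2 lay nearer to the non-pregnant mice than to pregnant replicate 1, and the log2 fold change was 0.30 without the latter.

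Among the signalling genes, the kinase Hunk was scarce and was higher in every deep-layer type. In L5 IT it stood at 29.0 and 34.5 against 73.4 and 73.2 CPM (1.24, SE 0.132) and in L6 CT at 30.0 and 30.1 against 74.0 and 88.3 CPM (1.44, SE 0.123). In L5/6 NP it stood at 8.27 and 5.16 against 41.0 and 40.6 CPM and in L6 IT at 10.4 and 12.0 against 36.8 and 30.7 CPM. L5 ET had the least of it in both groups, with 4.34 and 3.94 against 16.7 and 20.8 CPM.

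Plcxd3, the phospholipase-domain gene, differed clearly in L5 ET neurons, at 57.1 and 48.6 against 146 and 140 CPM (1.47, SE 0.113). In L6 CT it stood at 116 and 224 against 268 and 297 CPM (0.72, SE 0.425), so the non-pregnant mice differed from each other by more than non-pregnant replicate 2 differed from the pregnant ones. The log2 fold change was 0.32 without non-pregnant replicate 1 and 1.32 without non-pregnant replicate 2. In L5 IT, L5/6 NP and L6 IT its groups overlapped and the log2 fold changes were 0.30 (SE 0.316), 0.021 (SE 0.138) and 0.11 (SE 0.113). Each of those 3 values was smaller than its standard error.

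Arhgap15, the Rac inhibitor, was the gene that was lower in the pregnant mice. In L5/6 NP it stood at 131 and 123 against 39.1 and 36.5 CPM (-1.72, SE 0.175), in L5 ET at 105 and 108 against 51.3 and 46.3 CPM (-1.09, SE 0.112) and in L5 IT at 181 and 184 against 103 and 101 CPM (-0.81, SE 0.106). L6 CT followed with 119 and 133 against 86.1 and 87.8 CPM (-0.53, SE 0.102). In L6 IT, the type with the highest Arhgap15 level, it stood at 265 and 241 against 231 and 235 CPM (-0.13, SE 0.100), a difference smaller than the gap between the non-pregnant mice.

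Zfpm2, the GATA cofactor, is a gene of L6 CT neurons, where it stood at 1653 and 1570 against 1749 and 1937 CPM (0.21, SE 0.0973). The larger differences lay in types with less of it. L5/6 NP had 51.5 and 50.6 against 283 and 309 CPM (2.55, SE 0.151) and L5 ET had 206 and 194 against 510 and 511 CPM (1.39, SE 0.111). In L5 IT the non-pregnant mice differed widely, at 123 and 38.5 against 150 and 198 CPM, so that the log2 fold change of 1.11 (SE 0.740) was 0.52 without non-pregnant replicate 2 and 2.18 without non-pregnant replicate 1. In L6 IT the groups overlapped at 39.4 and 33.5 against 72.5 and 39.2 CPM, and the log2 fold change of 0.65 was 0.059 without pregnant replicate 1.

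To give the share of nuclei with a gene at one depth, each nucleus was thinned to 8000 UMIs, which left out 33, 5, 20 and 38 of the deep-layer nuclei of the 4 libraries. The share of nuclei with at least 1 UMI did not overlap between the groups in 37 of 40 pairs of gene and deep-layer type, being higher in 31 and lower in 6. Over all genes of the deep-layer types with a mean of at least 10 CPM, 18.1% of such pairs were higher without overlap and 19.1% lower. The contrast that chose the genes is the same, so nothing is read from this count. The 3 overlaps were Plcxd3 in L5 IT, L5/6 NP and L6 IT. Zfpm2 in L6 CT counted among the 6 lower ones although it was in 100% and 100% against 99.8% and 99.7% of nuclei.

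**Figure D2:**
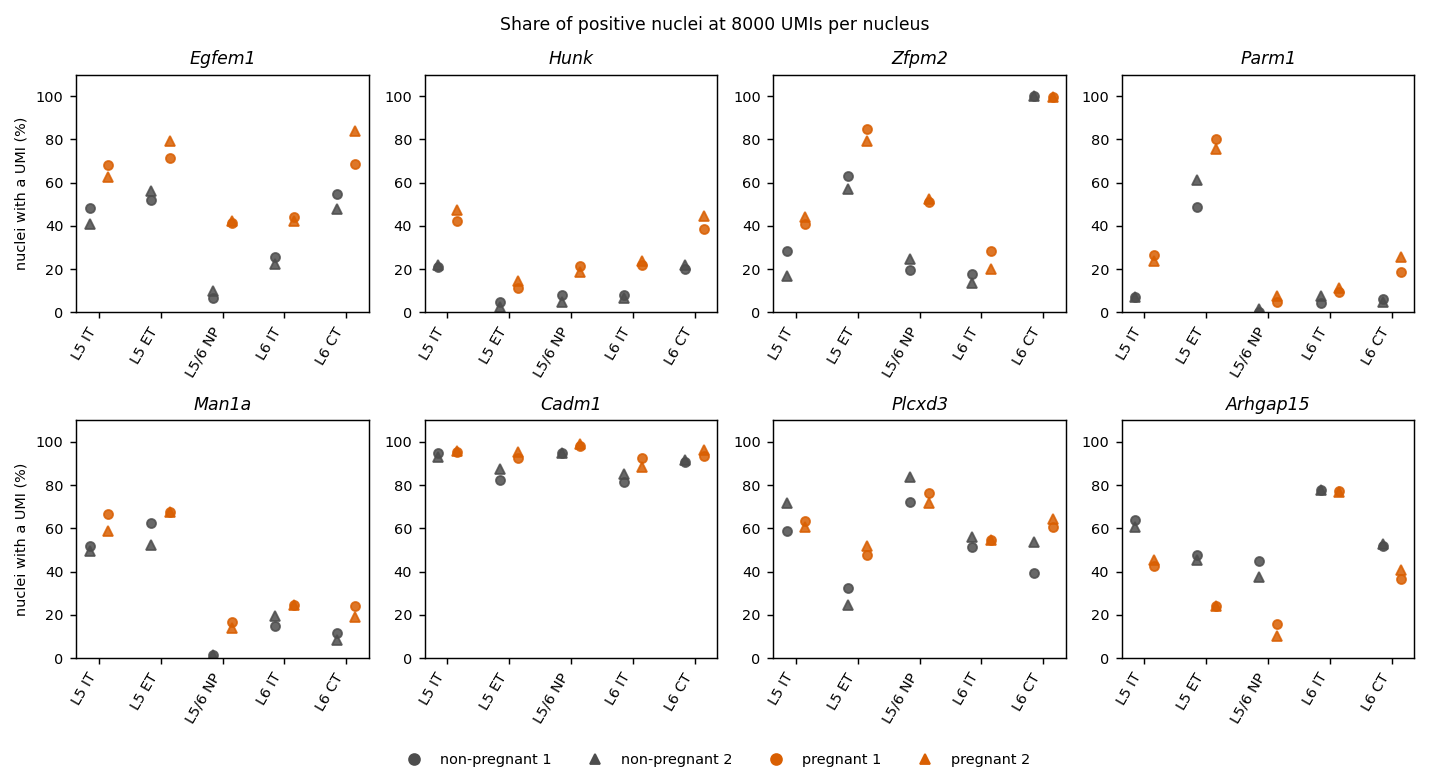
Share of nuclei (%) with at least 1 UMI of each gene after thinning to 8000 UMIs, in the 5 deep-layer types, with 1 point per library (grey non-pregnant, orange pregnant). In L5/6 NP the groups lie far apart for Egfem1 (6.58% and 9.84% against 41.2% and 42.1%), Zfpm2 (19.7% and 24.6% against 51.0% and 52.3%) and Arhgap15 (44.7% and 37.7% against 15.7% and 10.3%).

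For the rarer genes positive nuclei held little more than 1 UMI, so more nuclei with the gene and more RNA per nucleus cannot be told apart. In L5 IT, Hunk was found in 21.1% and 22.0% of nuclei against 42.0% and 47.2%, while positive nuclei held 1.21 and 1.29 against 1.44 and 1.47 UMIs on average. Parm1 was found in 7.12% and 7.32% against 26.5% and 23.6% of L5 IT nuclei, with 1.35 and 1.2 against 1.36 and 1.35 UMIs per positive nucleus. Without thinning, those Parm1 shares were 13.1% and 14.6% against 42.4% and 38.5%, and their Wilson 95% intervals, which cover counting error only, ended at 20.1% in the non-pregnant and began at 32.3% in the pregnant libraries.

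For the more abundant Cadm1 and Egfem1 in L5 ET, both the share and the UMIs per positive nucleus were higher. Plcxd3 in L5/6 NP, also abundant, overlapped between the groups in both measures. Cadm1 was already in 82.5% and 87.4% of non-pregnant L5 ET nuclei and in 92.5% and 95.2% of pregnant ones, and the UMIs per positive nucleus were 2.95 and 2.86 against 5.23 and 5.02. Egfem1 in L5 ET was in 51.9% and 56.3% against 71.3% and 79.2% of nuclei, with 7.33 and 8.06 against 13.3 and 14.0 UMIs. The median L5 ET nucleus held 1 and 2 UMIs of Egfem1 in the non-pregnant and 6 and 7 in the pregnant mice.

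L5/6 NP neurons looked different. The median nucleus held 0 UMIs of Egfem1 in every library, and the highest 10% of nuclei began at 0 and 0 UMIs in the non-pregnant and at 9 and 11.4 UMIs in the pregnant mice. Positive nuclei held 1.80 and 1.33 against 6.33 and 6.91 UMIs. Man1a was in 1.32% and 1.64% against 16.7% and 14.0% of these nuclei. Unthinned, the non-pregnant Man1a shares were 2.17% and 1.61% at median depths of 11148 and 14456.5 UMIs per nucleus, which is no more than the 1.47% to 4.32% of oligodendrocyte precursors with a Man1a UMI at 5977 to 7787.5. In the type with the lowest share, the same background was 1.40% to 3.79% for Egfem1 (oligodendrocytes), 0% to 2.62% for Hunk, 0.570% to 4.65% for Zfpm2 and 0% to 1.51% for Plcxd3 (microglia), and 0% to 2.33% for Parm1 and 0% to 1.38% for Arhgap15 (astrocytes). These cells had medians of 2591 to 8288 UMIs per nucleus, below those of L5/6 NP, so the shares may understate the background at the depth of neurons. For Zfpm2 the low end came from non-pregnant and the high end from pregnant microglia. Its level there differed between the groups, as given below, so its range is no single floor. Cadm1 was in 50% to 58.9% of nuclei even in the type with the least of it (oligodendrocytes), which gives it no usable background value.

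The sub-clusters show which nuclei carried these differences. In L5/6 NP the pregnant-limited sub-clusters, 19 and 24 nuclei, held 16.0% and 19.9% of the type's UMIs in the pregnant libraries but 41.0% and 68.4% of its Egfem1, 55.1% and 72.9% of its Man1a and 41.5% and 52.2% of its Hunk. They held no UMI of Arhgap15, which allows up to 11.8 and 8.89 CPM. In the larger of them, sub-cluster 6 with 14 and 17 nuclei, Egfem1 was found in 100% and 100% of nuclei and Man1a in 92.9% and 70.6%. Its leading genes apart from the 8 were Gpc5, Fstl5, Cntnap4, Nell1 and Il1rapl2.

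**Figure D3:**
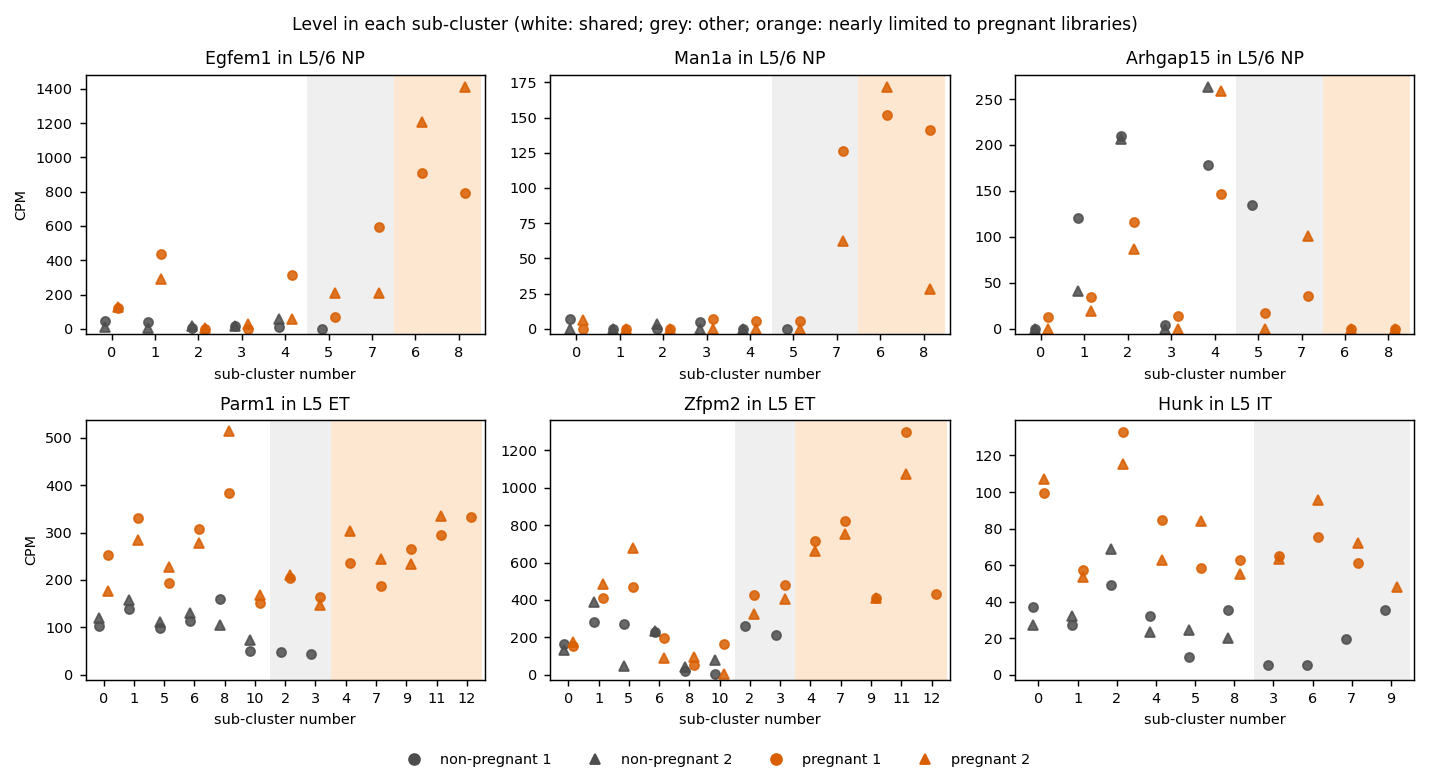
Level (CPM) of 6 gene and type pairs in each sub-cluster, with 1 point per library that had at least 5 nuclei there (grey non-pregnant, orange pregnant). White columns are shared sub-clusters, grey ones neither kind, and orange ones pregnant-limited. Man1a in L5/6 NP stayed near 0 in the shared columns, while Parm1 in L5 ET and Hunk in L5 IT were higher in the pregnant libraries in all 6 shared columns of their type.

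Giving each shared sub-cluster the same weight separated the genes into patterns. Hunk and Parm1 in L5 IT and Parm1 in L5 ET kept their size. The difference on the log2(CPM + 1) scale was 1.18 over all nuclei and 1.31 with equal weights for Hunk in L5 IT, 1.98 and 2.21 for Parm1 in L5 IT, and 1.15 and 1.25 for Parm1 in L5 ET. Each was higher without overlap in 6 of 6 shared sub-clusters of its type. In L5 ET the equally weighted Parm1 level was 111 and 117 against 270 and 274 CPM. Hunk in L6 CT was close to this pattern, with 1.41 and 1.21 and 7 of 8 shared sub-clusters.

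Man1a in L5/6 NP was at the other end. The difference of 4.04 over all nuclei became 0.22 with equal weights, at 2.30 and 0.723 against 2.57 and 1.30 CPM, and 0 of 5 shared sub-clusters differed without overlap. In the pregnant-limited nuclei Man1a stood at 150 and 127 CPM. Hunk in L5/6 NP went from 2.44 to 0.95, also with 0 of 5, and Arhgap15 there from -1.72 to -0.56 with 2 of 5. In other types Man1a held up better, with 0.83 and 0.93 in L6 IT and 0.49 and 0.43 in L5 ET.

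Egfem1 and Zfpm2 lay in between. Egfem1 in L5/6 NP went from 4.06 to 2.55, at 24.1 and 21.1 against 174 and 102 CPM, and was higher without overlap in 2 of 5 shared sub-clusters. In L5 ET it went from 1.48 to 0.88 (4 of 6) and in L5 IT from 1.03 to 0.68 (4 of 6). Zfpm2 went from 2.51 to 1.59 in L5/6 NP (3 of 5) and from 1.35 to 0.65 in L5 ET, where the pregnant-limited nuclei stood at 730 and 757 CPM. Cadm1 went from 1.06 to 0.48 in L5 ET but from 0.47 to 0.45 in L5/6 NP, where 4 of 5 shared sub-clusters were higher. Plcxd3 in L5 ET went from 1.42 to 1.2 (4 of 6, and lower in 1).

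**Figure D4:**
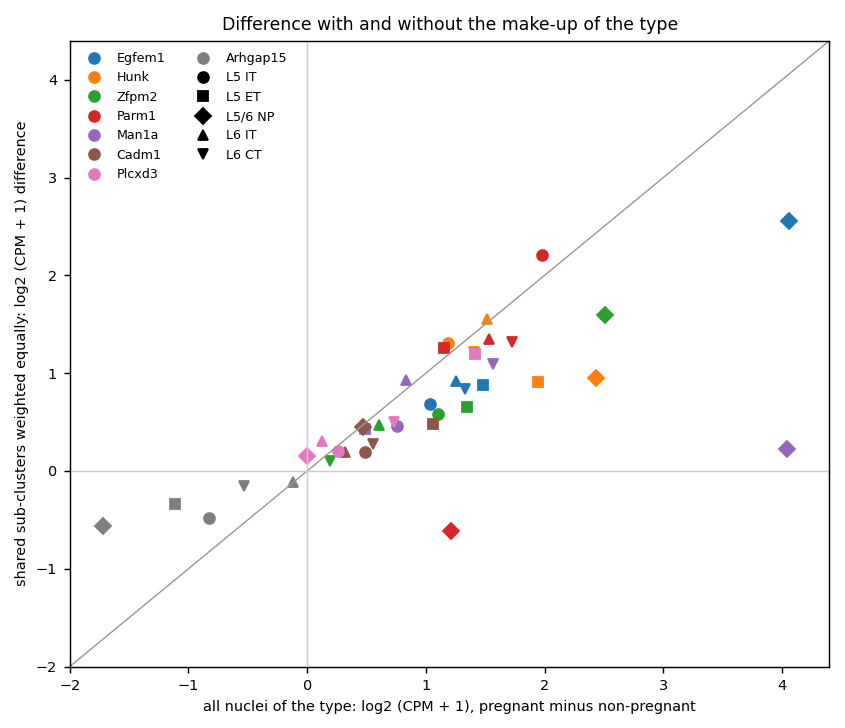
Difference of each gene in each deep-layer type, log2(CPM + 1) in pregnant minus non-pregnant mice, over all nuclei (horizontal axis) and with each shared sub-cluster weighted equally (vertical axis); colours mark genes, symbols mark types, and the grey diagonal marks equality. Hunk and Parm1 of L5 IT lie on or above the diagonal, and Man1a of L5/6 NP falls from 4.04 to 0.22.

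Over the 32 shared sub-clusters of the 5 types, Hunk was higher without overlap in 22, Parm1 in 21, Egfem1 in 18, Man1a in 17, Cadm1 in 17, Plcxd3 in 13 and Zfpm2 in 10, while Arhgap15 was lower in 10. The opposite direction without overlap was seen for Plcxd3 in 3, Zfpm2 in 2 and Cadm1 in 1. Over all pairs of gene and shared sub-cluster, 17.6% were higher and 18.0% lower in this way. The sub-clusters come from the same mice and are no replicates. They hold as few as 5 nuclei of a library, so a scarce gene is counted there with little precision.

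The edgeR fit was repeated on nuclei drawn so that every library gave the same number within each shared sub-cluster. Larger sub-clusters thus counted for more than with equal weights. This setting is called equal nuclei from each shared sub-cluster below. The log2 fold changes in L5 IT were then 1.27 (SE 0.166) for Hunk and 2.31 (SE 0.260) for Parm1. Parm1 in L5 ET stood at 1.16 (SE 0.138) and Plcxd3 there at 1.54 (SE 0.162). Egfem1 stood at 3.63 (SE 0.30) in L5/6 NP and 1.17 (SE 0.131) in L5 ET. Arhgap15 was at -0.49 (SE 0.124) in L5 IT, -0.55 (SE 0.164) in L5 ET and -0.60 (SE 0.248) in L5/6 NP. These fits used 42 to 117 nuclei per type and library and were chosen after the sub-clusters had been seen.

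The clusters kept out of the named types, 548 and 504 gated pregnant nuclei, had high Zfpm2 (1290 and 1217 CPM), Cadm1 (1094 and 1150 CPM), Hunk (96.9 and 101 CPM) and Man1a (184 and 155 CPM) and low Arhgap15 (45.0 and 36.8 CPM). They had no non-pregnant counterpart to compare, with 14 and 0 nuclei.

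Few pairs of the 8 genes were correlated over nuclei in every library. After thinning, Spearman's correlation between 2 genes over the nuclei of a type and library was within 0.2 of zero for 90.2% of values in L5 IT, 82.1% in L5 ET, 73.3% in L5/6 NP, 94.6% in L6 IT and 78.6% in L6 CT. Of 140 pairs of genes and deep-layer types, 4 reached 0.2 or more in every library and 1 reached -0.2 or less. A pair with a gene near background in a library, such as Man1a in non-pregnant L5/6 NP, could hardly reach this in every library. The nuclei of a library share its depth and free RNA, and in sparse counts weak values are no finding, so these are descriptions.

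The pairs that stood out were few. Egfem1 and Cadm1 gave 0.26, 0.32, 0.39 and 0.27 in L5 IT and 0.24, 0.32, 0.44 and 0.34 in L6 CT. In L6 CT, Egfem1 and Zfpm2 gave 0.33, 0.29, 0.37 and 0.21, and Zfpm2 and Cadm1 0.26, 0.21, 0.29 and 0.31. Egfem1 and Man1a kept apart in L5 ET nuclei, at -0.46, -0.28, -0.31 and -0.28. Egfem1 and Zfpm2 in L5 ET differed between the groups, at 0.064 and -0.0081 in the non-pregnant and 0.46 and 0.45 in the pregnant mice, and this difference was not tested.

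In L5/6 NP nuclei, Egfem1 and Man1a were found in the same nucleus 1, 0, 14 and 14 times, where independence given their shares would give 0.0658, 0.0984, 7 and 6.31 times. Egfem1 and Hunk met 2, 0, 15 and 15 times against 0.395, 0.295, 9.06 and 8.41, and Egfem1 and Zfpm2 3, 2, 26 and 36 times against 0.987, 1.48, 21.4 and 23.6. Egfem1 and Arhgap15 met 3 and 4 times in the pregnant libraries against 6.59 and 4.63. Each of the 3 pairs of higher genes thus met more often than their shares give in the pregnant libraries, and the excess was not tested.

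The number of the genes found per nucleus was counted as well, and its direction follows from the choice of genes that were higher. At least 4 of the 7 higher genes were detected in 35.3% and 33.2% against 69.3% and 63.9% of L5 IT nuclei, and in 50.3% and 45.4% against 84.9% and 83.5% of L5 ET nuclei. In L5/6 NP these shares were 5.26% and 4.92% against 39.2% and 35.5%, in L6 IT 5.66% and 8.41% against 23.7% and 23.9%, and in L6 CT 38.8% and 44.2% against 63.7% and 76.4%. Values that the single shares alone would give were not computed, so nothing is read from these counts.

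The types outside the deep layers did not serve to choose the genes, although they come from the same 4 animals, and there the fits can be tested. In L2/3 IT and L4/5 IT neurons the genes mostly moved in the same direction as in the deep layers. By CPM, 7 of the 8 genes were higher without overlap in L2/3 IT and 1 was lower, and 6 were higher and 1 lower in L4/5 IT. Among genes with a mean of at least 10 CPM in the type, 27.7% were higher and 11.2% lower in L2/3 IT. In L4/5 IT these shares were 22.1% and 14.3%. Parm1 lay below that mean in both types but is in the counts of the 8. In edgeR's quasi-likelihood test 0 of 8 genes passed the adjusted threshold in either type, where 0.00597% and 0.107% of all genes were called. At an unadjusted p under 0.05 there were 6 of 8 in L2/3 IT and 5 of 8 in L4/5 IT. The share of all genes at that p is not given beside them. DESeq2 called 3 in L2/3 IT (Hunk, Man1a and Arhgap15) and 2 in L4/5 IT (Hunk and Man1a). Without the filter on low counts edgeR called 7 in L2/3 IT, all but Plcxd3, and 4 in L4/5 IT (Hunk, Parm1, Man1a and Arhgap15). With equal nuclei from each shared sub-cluster it called 3 in L2/3 IT (Hunk, Parm1 and Arhgap15) and 1 in L4/5 IT (Hunk). With equal nuclei from each fine cluster it called 2 in each. Most of these settings also called more genes than the main fit over all genes, so nothing is read from the member counts.

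Hunk, the kinase, stood at 19.7 and 28.2 against 46.9 and 49.4 CPM in L2/3 IT, a log2 fold change of 0.96 (SE 0.157, edgeR adjusted p = 0.138), and at 31.2 and 44.7 against 80.3 and 86.5 CPM in L4/5 IT (1.11, SE 0.178, edgeR adjusted p = 0.224). The groups were apart in both types although neither value passed. Shared sub-clusters held 98.9% and 99.8% against 98.3% and 98.3% of L4/5 IT nuclei, so nearly all nuclei lay in sub-clusters that every library had. Hunk was higher without overlap in 13 of the 13 shared sub-clusters of L4/5 IT, with a log2(CPM + 1) difference of 1.11 with equal weights. These sub-clusters repeat the contrast of the same mice and are no replicates. The share of all genes higher in this way in L4/5 IT is not given. Parm1, scarce there, stood at 2.37 and 2.68 against 7.23 and 4.83 CPM in L4/5 IT (1.24, SE 0.248, edgeR adjusted p = 0.134).

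Egfem1 was more abundant in L2/3 IT than in the other excitatory types of the non-pregnant mice but differed little there, at 752 and 733 against 902 and 940 CPM (0.27, SE 0.0812, edgeR adjusted p = 0.399). Zfpm2 in L2/3 IT stood at 96.7 and 32.4 against 286 and 187 CPM, and each pair of mice was far apart (1.84, SE 0.805, edgeR adjusted p = 0.781). Leaving out each library in turn gave log2 fold changes of 0.24 to 0.29 for Egfem1 and 1.24 to 2.84 for Zfpm2 in L2/3 IT. For Hunk it gave 0.74 to 1.23 in L2/3 IT and 0.86 to 1.41 in L4/5 IT. Whether the upper-layer differences were smaller than the deep-layer ones was not tested.

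Inhibitory neurons and glia had the genes at other levels. In inhibitory neurons Egfem1 stood at 735 and 682 against 688 and 710 CPM (-0.020, SE 0.0884, edgeR adjusted p = 0.983), and the 8 genes had a median log2 fold change of 0.061. There 3 of the 8 were higher without overlap, 2 lower and 3 overlapped, against 17.8% and 18.2% of genes with a mean of at least 10 CPM. In edgeR 0 of 8 passed in inhibitory neurons, 0 of 5 tested in astrocytes, 0 of 7 in oligodendrocytes, 0 of 6 in oligodendrocyte precursors and 0 of 5 in microglia. The call covered 0.346%, 0.55%, 0.2%, 0.102% and 0.546% of all genes tested in these cells. At an unadjusted p under 0.05 there were 3, 1, 2, 0 and 1 of the genes, and DESeq2 called 0 in each. The share of all genes at that p is not given, so nothing is read from the unadjusted counts. By CPM, 1 of the 8 was higher without overlap and 1 lower in astrocytes, and 2 were higher and 2 lower in microglia. Among genes with a mean of at least 10 CPM, the shares were 19.7% and 15% in astrocytes and 20.4% and 16.3% in microglia. Some of the 8 genes, such as Plcxd3 in microglia, lay below that mean.

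Astrocytes showed the value closest to the threshold, and it went the other way. Man1a stood there at 48.4 and 52.6 against 23.8 and 31.9 CPM (-0.90, SE 0.250, edgeR adjusted p = 0.0519). It passed with DESeq2 size factors in edgeR and without non-pregnant replicate 1, and over the edgeR alternatives the adjusted p ran from 0.0454 to 0.715. In microglia, where Zfpm2 is nearly absent, it stood at 2.14 and 2.67 against 16.8 and 16.1 CPM (2.67, SE 0.712, edgeR adjusted p = 0.0712). It passed without the filter on low counts and with doublets kept, and over the edgeR alternatives the adjusted p ran from 0.0261 to 0.795.

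Relatives of the 8 genes (other FOG and GATA factors, SynCAM proteins, alpha-mannosidases, phospholipase X-domain proteins, Rac GTPases with their regulators and effectors, AMPK-related kinases, and EMI or EGF domain proteins) were counted in the same way. Of 51 such genes found by symbol, edgeR called 1 higher and 0 lower of 40 tested in L5 IT, where 0.638% and 0.486% of all genes were called. It called 2 higher and 1 lower of 38 in L5 ET, against 2.07% and 1.35%, and 1 and 0 of 37 in L6 IT, against 0.477% and 0.223%. It called 0 of 30 in L5/6 NP and 0 of 37 in L6 CT, with 6 and 4 at an unadjusted p under 0.05 and 0 by DESeq2 in both. No share of all genes stands beside the unadjusted counts, so nothing is read from them. The median log2 fold change of the relatives tested lay between -0.029 and 0.061 over the 5 types.

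The relative that passed in several types was Man2a1, the Golgi alpha-mannosidase II, which acts after Man1a in N-glycan trimming. It stood at 121 and 113 against 204 and 175 CPM in L5 IT (0.72, SE 0.116, edgeR adjusted p = 0.00233) and at 178 and 185 against 292 and 256 CPM in L6 IT (0.59, SE 0.108, edgeR adjusted p = 0.00952). In L5 ET it stood at 133 and 131 against 182 and 165 CPM (0.43, SE 0.106, edgeR adjusted p = 0.0134). The pregnant libraries were higher in all 3 types without overlap, and Man1a was higher in the same types. Besides, in L5 ET the Rac exchange factor Tiam1 rose by 0.56 (SE 0.104, edgeR adjusted p = 0.000741) and the Rac effector kinase Pak1 fell by 0.53 (SE 0.106, edgeR adjusted p = 0.00201), both named after their values were seen.

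Because the dissected area is not given, a list of 22 genes whose level is known to differ between cortical areas was followed beside the 8 genes. In edgeR 1 of 14 tested was higher in L5 IT, against 0.638% of all genes, 2 of 15 in L5 ET, against 2.07%, 3 of 12 in L6 IT, against 0.477%, and 1 of 13 in L6 CT, against 0.581%, with none lower. Of 13 tested in L5/6 NP 1 was higher and 1 lower, against 1.23% and 0.508%. The called share of the list was thus above that of all genes in each of the 5 types, by few genes. The list was chosen with earlier results of these data known, so nothing is read from this. Etv1, a transcription factor of layer 5, passed in 3 types. It stood at 195 and 204 against 343 and 320 CPM in L5 IT (0.76, SE 0.113, edgeR adjusted p = 0.00105), at 162 and 140 against 356 and 328 CPM in L5 ET (1.22, SE 0.112, edgeR adjusted p = 2.36e-09), and at 11.0 and 6.91 against 18.5 and 17.9 CPM in L6 IT (1.06, SE 0.240, edgeR adjusted p = 0.0371).

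Tshz2 of the same list, singled out after its values were seen, led the only pregnant-limited sub-cluster of L2/3 IT (10 and 0 against 185 and 152 nuclei). It was also among the leading genes of 1 of the 5 pregnant-limited sub-clusters of L5 ET, of 1 of the 3 of L6 CT and of 3 of the 4 clusters kept out of the named types, and of 1 shared sub-cluster of L6 CT and 1 of neither kind in L5 IT. In L5 ET it stood at 58.0 and 94.4 against 332 and 516 CPM (2.51, SE 0.427, edgeR adjusted p = 0.196). In L4/5 IT it stood at 13.2 and 17.5 against 61.3 and 57.3 CPM (1.92, SE 0.143, edgeR adjusted p = 0.00777), and in L2/3 IT at 15.5 and 2.19 against 200 and 138 CPM (4.25, SE 1.27, edgeR adjusted p = 0.672). In L2/3 IT both Zfpm2 and Tshz2 were lower in non-pregnant replicate 2 than in non-pregnant replicate 1, while Tshz2 was higher there in L5 ET and L4/5 IT. The part of area in the differences of the 8 genes was not tested. The sub-cluster weighting above cannot test it, because the sub-clusters were made from expression and carry no label for area. Area and pregnancy cannot be told apart by 2 mice per group without such a label.

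Over the 28 sums of 7 excitatory types and 4 libraries, the genes most like each of the 8 differed from gene to gene. The measure was Pearson's r of log2(CPM + 1) among 7917 genes, given as a description because the sums share libraries and types. Plcxd3 went with the kainate receptor gene Grik3 (0.96) and the RNA gene Silc1 (0.93), Man1a with Crim1 (0.93) and Efcab6 (0.88), and Parm1 with the kinase gene Stk39 (0.89) and the potassium channel gene Kcnn2 (0.87). Zfpm2 went with Emb (0.84) and Pdzrn4 (0.84), Cadm1 with the calcium channel gene Cacna1c (0.84) and the G protein gene Gnaq (0.78), and Egfem1 with Ralyl (0.83) and the GABA receptor gene Gabrb2 (0.82). Hunk went with Cdr1os (0.81) and Pcdh15 (0.80), and Arhgap15 with Gtdc1 (0.81) and Atp11b (0.80). Among the 8 themselves the highest value was 0.86 for Egfem1 and Man1a, and the lowest -0.61 for Zfpm2 and Arhgap15.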

How the data were processed

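Single-nucleus RNA was counted in 4 libraries, 1 per mouse. Per the submitters' processing notes, Cell Ranger 10.0.0 and GRCm39 were used, and the deposited matrices hold raw UMI counts per gene and barcode. Groups and replicate numbers came from the labels. Nuclei with under 500 genes or over 5% mitochondrial UMIs and the top 5% of doublet scores in each library were left out, which removes doublets only in part, and free RNA was not subtracted. Nuclei were clustered (2000 variable genes, 40 principal components, Leiden resolution 1, leidenalg 0.10.2) and named from markers, without the 8 genes, Xist, mitochondrial and haemoglobin genes. Sub-clusters used 1000 genes, 15 components and resolution 0.8. UMIs were summed per type and library, and edgeR 4.0.16 (quasi-likelihood, counts of at least 10 by filterByExpr, all genes tested, Benjamini-Hochberg threshold 0.05) compared the groups of 2, with DESeq2 1.42.0 as alternative. Standard errors came from the fold change and its F statistic. The method was tested on simulated data. Intervals (95%) and the limit that 0 UMIs allow (3 counts) cover counting error only. The 2 mice per group are separate animals.

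Named were all 8 genes in every type, for each the 2 genes with the highest Pearson correlation over the sums among genes of at least 10 CPM, and related or area genes that passed in 2 or more deep-layer types. The members, the lists and the tests were chosen with earlier results of these data known. RefSeq promoters matched 6 of the 8 genes, and Zfpm2 and Cadm1 have none printed. In deep-layer types the members have no p-values, because that contrast chose them. Other filters, gates, resolutions, marker scoring, a replicate block, each library left out and equal nuclei per cluster were tried as alternatives.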

Additional observations from a re-analysis of the deposited data

Results flagged for a closer look

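Some of the 8 genes went the other way in cells outside the excitatory neurons, in that both pregnant libraries lay below both non-pregnant ones there while both lay above in at least 1 deep-layer type. The log2 ratio of the mean CPM, pregnant over non-pregnant, was -0.86 for Man1a in astrocytes and -0.16 for Man1a in microglia. In inhibitory neurons it was -0.21 for Plcxd3 and -0.13 for Parm1. Of genes with a mean of at least 10 CPM in the cells, 15% were lower without overlap in astrocytes, 16.3% in microglia and 18.2% in inhibitory neurons. Of the 8 genes, counted whatever their level, 1, 2 and 2 were. The difference between these cells and the deep-layer types was not tested.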

How the results depend on the processing

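The counts of genes called at an adjusted p under 0.05 moved with many settings. They were 1 for L2/3 IT, 17 for L4/5 IT, 148 for L5 IT, 464 for L5 ET, 168 in L5/6 NP, 88 in L6 IT, 102 in L6 CT, 52 in inhibitory neurons, 57 in astrocytes, 21 in oligodendrocytes, 9 in oligodendrocyte precursors and 52 in microglia. In that order, where the count moved by over 1.5 times, DESeq2 gave 111, 58, 73, 177, 66, 37, 23 (inhibitory neurons), 2, 2, 0 and 1 (microglia), leaving out L6 CT. Without the filter on low counts there were 615, 312, 283, 709, 264, 191, 488, 207, 91 (oligodendrocytes) and 14. Leaving out each library in turn gave 0 to 1213, 0 to 943, 23 to 523, 84 to 769, 114 to 248, 24 to 288, 6 to 821, 17 to 336, 20 to 86, 19 to 321, 1 to 34 and 15 to 128, with fewer samples in each fit and the lone mouse assumed to vary like the others.

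With the replicate number as a block there were 39 for L2/3 IT, 201 for L4/5 IT, 42 for L5 IT, 219 in L6 IT, 206 in L6 CT, 30 in astrocytes and 96 in microglia. Deviations of same-numbered mice correlated between -0.073 and 0.063 over all genes tested, which cannot exclude a shared batch that touches few genes. The labels name no pairing of the mice, so the block was not used in the main fit. The block called 1 of the 8 genes in L2/3 IT (Man1a), 3 in L4/5 IT (Hunk, Parm1 and Man1a) and Zfpm2 in microglia.

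Keeping the doublets gave 59 for L2/3 IT, 31 for L4/5 IT and 83 for L5/6 NP. Naming nuclei by their highest marker score gave 46, 67, 507 (L5 IT), 662 (L5/6 NP) and 47 (L6 IT). Equal nuclei from each fine cluster gave 46, 59, 96, 251 and 102 in the first 5 types, and equal nuclei from each shared sub-cluster 89 (L2/3 IT), 82, 36, 30, 46 and 15 (L5 IT to L6 CT), which uses fewer nuclei. Without pregnant-limited sub-clusters there were 2, 109 (L5 ET) and 56 (L5/6 NP). The stricter gate gave 6 in L4/5 IT and 275 in L5 ET, and resolution 2 gave 282 in L5 ET. Thinned to 4000 UMIs, 2 of 140 pairs of genes had a correlation of at least 0.2 in size and of one sign in every library, instead of 5. The cause of these moves was not tested.

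Of 592 values of the 8 genes in deep-layer types under alternatives, 462 moved by less than the spread and 130 moved by more. The sign turned in 8, all of Plcxd3, in L5 IT, L5/6 NP or L6 IT, from -0.01 to -0.86. In other types 467 of 550 kept their direction and side of the threshold, 55 passed it in the same direction, and 28, none of them past it, turned sign. Depth limits the scarce genes: Parm1 and Man1a in L5/6 NP rest on few UMIs.

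Of the log2 fold changes that turned, Plcxd3 in L4/5 IT was 0.021 by marker score and 0.10 with equal nuclei from each shared sub-cluster, Cadm1 in oligodendrocytes -0.0010 without the filter on low counts, and Egfem1 in oligodendrocyte precursors 0.014 with doublets kept. Leaving out each library gave -0.47 to 0.092 for Plcxd3 in L4/5 IT and -0.49 to 0.065 for Arhgap15 in microglia. In inhibitory neurons it gave -0.060 to 0.018 for Egfem1, -0.069 to 0.32 for Hunk and -0.14 to 0.052 for Arhgap15, and in astrocytes -0.92 to 0.14 for Egfem1, -0.33 to 0.037 for Zfpm2 and -0.033 to 0.13 for Cadm1. Oligodendrocytes gave -0.13 to 0.27 for Hunk, -0.18 to 0.18 for Zfpm2, -0.18 to 0.18 for Cadm1 and -0.16 to 0.78 for Arhgap15. Their precursors gave -0.12 to 0.0080 for Egfem1, -0.17 to 0.38 for Hunk, -0.15 to 0.022 for Zfpm2, -0.041 to 0.46 for Parm1 and -0.15 to 0.089 for Cadm1.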
